A study of Mus musculus with 3 samples.

Results

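The nuclear-encoded subunits of the mitochondrial respiratory chain were described as 1 set of genes in RNA-Seq counts of the E10.5 mouse maxillary process. The set held the 86 protein-coding genes, of 55401 gene identifiers counted, whose GENCODE M21 symbols begin with Nduf followed by a, b, c, s or v and a number, with Uqcr, with Cox4 to Cox8, or with Atp5, together with *Cyc1* and *Sdha* to *Sdhd*. Complex I took 37 of these genes, complex II 4, complex III 9, complex IV 18 and complex V 18. Membership followed the symbol and the protein-coding label alone. *Ndufab1* and *Atpif1*, which are named otherwise, thus stood outside. So did *Ndufb1-ps*, whose symbol matches but which is annotated as a non-coding RNA. *Ndufa4*, now counted with complex IV, stood with complex I. The rule used no measured value, though it was set with earlier results of these data known.

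The study asked how overexpression of the homeobox factor *Dlx2* in neural crest derivatives alters the early maxillary process, the facial prominence that forms the upper jaw. All 3 libraries analysed here were of Dlx2-overexpressing (OE) embryos of genotype *Wnt1cre; Rosa26Dlx2/-*, in which Wnt1-driven Cre opens a *Dlx2* transgene at the Rosa26 locus in cells of neural crest origin, so that surface epithelium, blood and endothelium in the same tissue are not targeted. The libraries are called replicates 1, 2 and 3, a numbering that names them and carries no order. They came from independent RNA samples, whether embryos were pooled for each is not given, and every spread below is the spread between these 3 samples. Libraries of wild-type embryos are not analysed here, and no value below is a difference between genotypes. Counts on genes numbered 35351031 to 40057435 per library, which puts the limit for a gene with 0 counts, set at 3 counts, at 0.0777 to 0.0843 counts per 1000000 counts on genes (CPM). This limit and all intervals of this kind cover counting error only. *Dlx2* had 9089, 7150 and 6890 counts in replicates 1, 2 and 3, and the 5 mesenchymal markers *Prrx1*, *Twist1*, *Pdgfra*, *Msx1* and *Alx4* summed to 1300.3, 1318 and 1326 CPM, with none of them at 0.

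The respiratory chain oxidises NADH at complex I and succinate at complex II, passes electrons through complex III and cytochrome c to oxygen at complex IV, and uses the proton gradient that this builds to make ATP at complex V. Complexes I, III, IV and V are assembled from subunits of both the nuclear and the mitochondrial genome, whereas complex II is nuclear throughout. Several subunits of complexes IV and V exist as paralogs, of which some are ubiquitous and others are known from heart and skeletal muscle, lung or testis.

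Nearly the whole set was detected. Of 86 members, 80 reached 10 counts in each of the 3 libraries, and the other 6 comprised *Cox7a1* with 7, 16 and 25 counts and 5 genes at or under 3 counts in each library. The 86 genes together took 8216, 9376 and 13833 CPM in replicates 1, 2 and 3 (10475 ± 2966, SD, n = 3), or 0.868%, 0.944% and 1.30% of the counts on genes. Their sum was highest in replicate 3 and lowest in replicate 1. Levels are compared between genes only per length, as transcripts per 1000000 (TPM) from the exonic length of each gene. The median member stood at 150.2 TPM and the median of all protein-coding identifiers at 2.62 TPM. Across the 80 detected members the order of levels was nearly the same in each library, with a Spearman rho of 0.992 between replicates 1 and 2, 0.953 between 2 and 3 and 0.918 between 1 and 3, described over genes, which share their lengths.

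**Figure D1:**
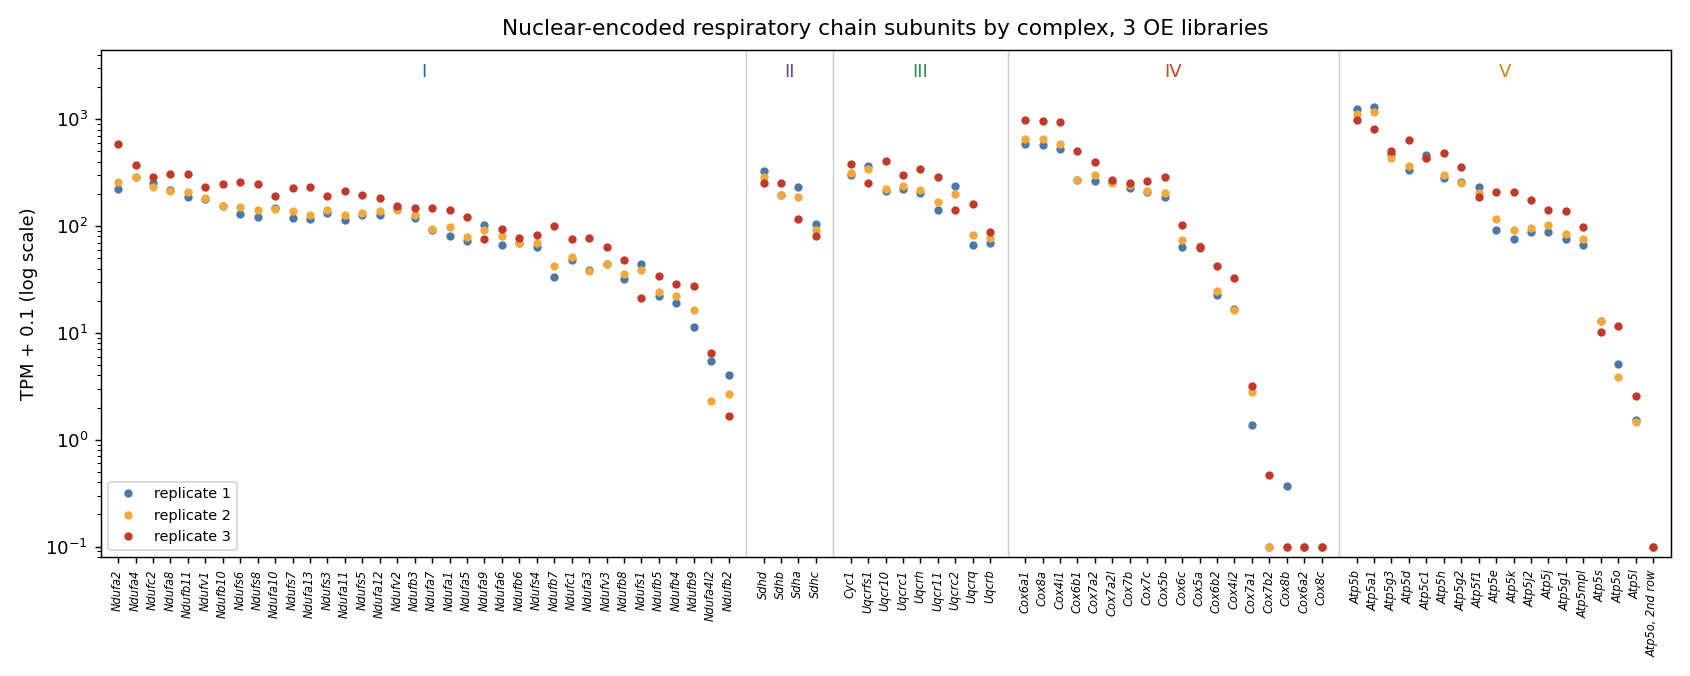
Level of the members in each of the 3 OE libraries, as TPM + 0.1 on a log axis, with 1 point per library and the members of complexes I to V ordered from high to low mean TPM. *Atp5b* and *Atp5a1* sit near 1000 TPM, while *Cox6a2*, *Cox8c* and the second *Atp5o* row lie at the bottom of the axis with 0 counts in all 3 libraries.

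Complex I, the entry point for NADH, had all 37 members above 10 counts in every library, with a median of 131 TPM. Its highest mean per exonic length was that of *Ndufa2*, an accessory subunit, at 356 ± 201 TPM, a rank that rests on replicate 3 and on the length used, and its lowest was that of *Ndufb2* at 2.696 ± 1.203 TPM (SD, n = 3). *Ndufb2* had 230, 161 and 132 counts over 5628 exonic bases, far longer than most members, and part of this sequence lies in the transcripts of other genes, *Braf* among them. The 7 core subunits, which form the catalytic part of the enzyme, spread over a wide range.

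*Ndufv1*, which binds NADH and the flavin, had 127, 149.7 and 243 CPM in replicates 1, 2 and 3. Its partner *Ndufv2*, which holds an iron-sulphur cluster, had 83.0, 95.4 and 132 CPM. Both were highest in replicate 3. *Ndufs3*, a subunit of the peripheral arm, had 76.5, 95.4 and 168 CPM. The cluster-bearing *Ndufs7* and *Ndufs8* differed more between the libraries, at 54.4, 74.4 and 156 CPM and 41.9, 57.5 and 126 CPM, with replicate 3 more than 2-fold above either of the others. *Ndufs1*, the largest core subunit, went the other way: it had 94.9, 97.9 and 68.0 CPM and was lowest in replicate 3, at a log2 ratio of -0.50 to the mean of the other libraries. Among the 7 core genes, 4 were at least 1.5-fold higher in replicate 3 than in the mean of the others, a limit passed by 24.9% of the 17115 genes tested. Among the 28 accessory subunits, which surround the core and take no part in electron transfer, 26 passed it, with a median log2 ratio of 1.03 against 0.82 for the core. After correction for exonic length and base composition these medians were 0.58 and 0.57, and the difference was not tested.

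The accessory subunit *Ndufb7*, an intermembrane-space component on chromosome 8 (83566671 to 83571626, plus strand, mm10), had the largest ratio between libraries of any member with a mean count of at least 100. Its counts were 1559, 2139 and 6749, or 40.4, 60.1 and 179 CPM, a 4.44-fold ratio of the highest to the lowest library. *Ndufa2* followed within the complex with 1301, 1662 and 5048 counts and a 3.98-fold ratio. At the other end, *Ndufa9*, on chromosome 6 (126821721 to 126849136, minus strand), had 58.0, 60.5 and 63.1 CPM, an SD of 2.53 around a mean of 60.5 (n = 3), so its libraries hardly differed. The accessory subunits therefore ranged in replicate 3 from a log2 ratio of -0.56 for *Ndufb2* to 1.86 for *Ndufb7*.

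Complex II, succinate dehydrogenase, had members that lay on both sides between libraries. *Sdha*, the flavoprotein that oxidises succinate, had 254, 241 and 193 CPM in replicates 1, 2 and 3 and was lowest in replicate 3. Its iron-sulphur partner *Sdhb* had 117, 136 and 225 CPM and was highest in replicate 3. The membrane anchors differed less: *Sdhc* had 90.7, 94.4 and 105 CPM and *Sdhd* 108, 112 and 125 CPM. The summed level of the 4 genes was 569, 583 and 647 CPM, and only *Sdhb* was at least 1.5-fold higher in replicate 3, 1 of 4 genes against the 24.9% of all genes. All 4 differed between the libraries by more than counting error, as did 81.5% of all genes tested. In each library *Sdhd* had a TPM above that of *Sdhc*, and the median over the 4 genes was 196 TPM. Whether complex II differs from the other complexes in this respect was not tested, and its principal transcripts are longer, with a median of 2065.5 bases against 838 over the tested members of the set.

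Complex III, which passes electrons from ubiquinol to cytochrome c, had the highest median of the 5 complexes by exonic length, at 255 TPM. *Cyc1*, the haem-bearing cytochrome c1, had the highest mean by exonic length, 329.6 ± 42.0 TPM (SD, n = 3), and 173, 209.6 and 324 CPM in the 3 libraries. The Rieske iron-sulphur protein *Uqcrfs1* had 133, 145 and 138 CPM, with a replicate 3 ratio of -0.01. *Uqcrfs1* was above *Cyc1* in TPM in replicates 1 and 2, and by coding or principal transcript length other members of the complex had higher means than *Cyc1*. The core proteins, which are not electron carriers, were discordant. *Uqcrc1* had 248, 309 and 500.3 CPM and was highest in replicate 3, whereas *Uqcrc2* had 162, 161 and 145 CPM and was lowest there. The 5 small subunits all passed the 1.5-fold limit in replicate 3, as did 24.9% of all genes, with a median log2 ratio of 1.36. Of the redox and core subunits 2 of 4 passed, with a median of 0.38. *Uqcrq*, which supports cytochrome b, was the extreme member, with 1256, 1665 and 4436 counts and a 3.62-fold ratio between libraries. *Uqcrb* was the lowest member at 78.7 ± 9.41 TPM and had 632, 757 and 1166 counts.

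Complex IV, cytochrome c oxidase, held the sharpest split between expressed and silent members. The 10 subunits of the ubiquitous form were all detected, from *Cox5a*, a subunit on the matrix side, at 63.7 ± 1.24 TPM to *Cox6a1* at 747 ± 213 TPM. Of 7 paralogs known from particular tissues, only *Cox4i2* and *Cox6b2* were above 10 counts in every library. In each paralog family one gene carried almost all of the mRNA, except where *Cox7a2l* was counted as a relative of *Cox7a2*.

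*Cox4i1*, the ubiquitous form of the largest nuclear subunit, had 8380, 10168 and 21986 counts, and *Cox4i2*, its paralog of lung and low oxygen, had 135, 144 and 386. *Cox4i1* made up 96.9%, 97.3% and 96.7% of the TPM of the pair. *Cox4i1* lies on chromosome 8 (120668222 to 120674207, plus strand) and shares 9.94% of its exonic bases with other annotated genes, *Emc8* among them. *Cox6a1* had 4290, 5145 and 10443 counts, whereas its heart and muscle paralog *Cox6a2* had 0 in all 3 libraries. *Cox6b1* had 1980, 2135 and 5362 counts and *Cox6b2*, known from testis, 260, 302 and 707, so that *Cox6b1* held 92.3%, 91.7% and 92.2% of the pair. The share of *Cox6b2* was 7.93% ± 0.31 (SD, n = 3), while the testis markers *Ldhc*, *Tnp1* and *Prm1* had at most 5 counts each. Both Cox6b genes were higher in replicate 3, and the share of the pair moved by less than 1 percentage point between libraries.

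*Cox7a2* had 2604, 3179 and 5645 counts and *Cox7a1*, the heart and muscle form, 7, 16 and 25. *Cox7a2l*, which acts in joining complexes III and IV and not as a plain substitute for *Cox7a2*, had 3948, 4155 and 6038 counts. *Cox7a2* held 54.7% ± 4.25 of the TPM of the 3 genes and *Cox7a2l* 44.9% ± 4.35, while *Cox7a1* held 0.395% ± 0.134 (SD, n = 3). *Cox7b* had 2830, 3273 and 4639 counts and the testis form *Cox7b2* 0, 0 and 3. *Cox8a* had 3712, 4492 and 9055 counts, the heart and muscle form *Cox8b* 1, 0 and 0, and the testis form *Cox8c* 0 in each. Of the muscle and testis paralogs, *Cox6a2*, *Cox7b2*, *Cox8b* and *Cox8c* were thus at or under 3 counts in every library, whereas *Cox7a1* and *Cox6b2* were above. The muscle marker *Ckm* had 0, 0 and 1 counts. The 6 striated muscle markers summed to 7.85, 3.85 and 6.21 CPM, with none but *Ckm* at or under 3 counts in every library. At this depth the level of *Cox6a2*, *Cox8b*, *Cox8c* and *Cox7b2* could not be told from 0.

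**Figure D2:**
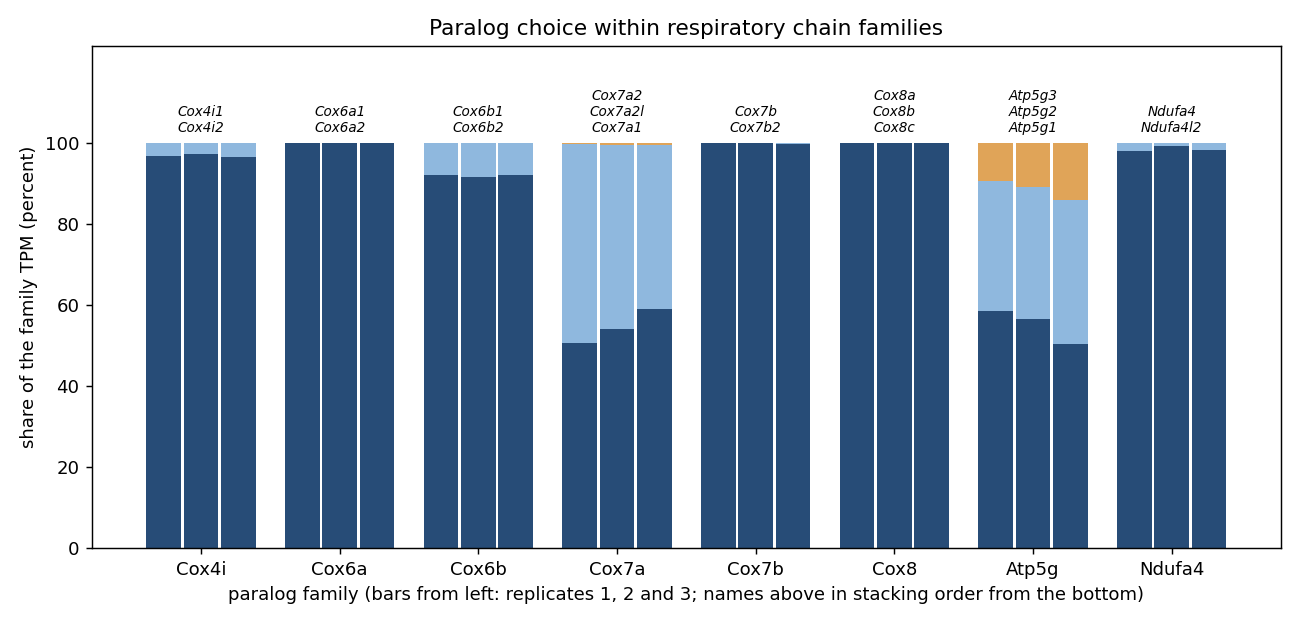
Share of each paralog in the TPM of its family, with 3 bars per family for replicates 1, 2 and 3 and the paralogs stacked in the order of the names. *Cox4i1*, *Cox6a1*, *Cox6b1*, *Cox7b*, *Cox8a* and *Ndufa4* each take over 90% of their family, whereas the Cox7a and Atp5g families are divided between 2 or 3 genes.

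Among the remaining ubiquitous subunits of complex IV, the lowest replicate 3 ratios were 0.47 for *Cox5a* and 0.58 for *Cox7b*, both under the 1.5-fold limit of 0.585 on the log2 scale. The other 8 of these 10 genes passed it. Of the members of complex IV as a whole 11 of 14 tested passed, against 24.9% of all genes, with a median log2 ratio of 1.05. The same holds for paralogs with few counts: *Cox4i2*, *Cox6b2* and *Cox7a1* were each highest in replicate 3, at 1.43, 1.31 and 1.06. *Ndufa4*, grouped here with complex I by its symbol, had 4108, 4437 and 7745 counts and held 98.6% ± 0.58 of the TPM it shares with *Ndufa4l2*, a paralog induced by low oxygen, which had 61, 27 and 104 counts.

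Complex V, the ATP synthase, contained the most abundant members of the set. *Atp5b*, the catalytic beta subunit (chromosome 10, 128083273 to 128090391, plus strand), had 55045, 52726 and 62765 counts and 1121 ± 136 TPM (SD, n = 3), and its mean led the set also when coding length or the length of the principal transcript was used. *Atp5a1*, the alpha subunit with which it alternates in the catalytic head, had 42020, 40514 and 38302 counts and 1091 ± 249.9 TPM, and was above *Atp5b* by exonic length in replicates 1 and 2. Together with the rotor subunits *Atp5c1*, *Atp5d* and *Atp5e* they form the F1 head, whose 5 genes summed to 2965, 3165 and 3652 CPM. The members of the head did not move as one. *Atp5c1*, the gamma subunit, had 235, 261 and 329 CPM. *Atp5d*, the delta subunit, had 171, 221 and 493 CPM. *Atp5e*, the epsilon subunit, had 43.3, 63.7 and 147 CPM, and in replicate 3 these 2 small subunits had log2 ratios of 1.34 and 1.48, against 0.20 for *Atp5b* and -0.13 for *Atp5a1*.

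The peripheral stalk, which holds the head still, had 3 of 4 tested genes past the 1.5-fold limit in replicate 3, and the 4 small membrane subunits *Atp5j2*, *Atp5k*, *Atp5l* and *Atp5mpl* all passed, against 24.9% of all genes. *Atp5k* had 485, 625 and 1942 counts, a 4.10-fold ratio between libraries, the second largest in the set. *Atp5o*, the stalk subunit that contacts the head, had 103, 83 and 339 counts and a 3.86-fold ratio. Its level, 6.76 ± 4.10 TPM, was far under that of its stalk partner *Atp5h* at 356 ± 112, and 47.9% of its exonic bases are shared with other annotated genes. A second protein-coding row with the symbol *Atp5o* (ENSMUSG00000116933), which runs through the *Atp5o* locus and shares all of its exonic bases, had 0 counts in all 3 libraries. *Atp5l*, a membrane subunit, was the lowest detected member of the set by exonic length, at 1.75 ± 0.620 TPM with 95, 98 and 239 counts. This rank rests on the length used, since *Ndufa4l2* had fewer counts, 61, 27 and 104, and stood higher at 4.64 TPM. Of the windows of 100 bases in *Atp5l*, 4.70% also occur in *Gm10221*, *Atp5l-ps1* or *Gm4853*. *Atp5s*, grouped here by its symbol, had 268, 290 and 308 counts and was the one tested member whose libraries did not differ beyond counting error.

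The c ring of complex V is made of 1 peptide encoded by 3 genes, *Atp5g1*, *Atp5g2* and *Atp5g3*, which differ in the targeting sequence that is cut away on import. The coding sequences of the mature peptide are shown because all 3 mRNAs supply the same ring and reads are told apart only where their bases differ. The sequences are the last 75 codons before the stop in GENCODE M21 (GRCm38, the build of mm10), and capitals mark the bases at which the 3 genes are not all alike. The intervals chr11:96073107-96073635, chr15:102663017-102665166 and chr2:73908596-73909296, all on the minus strand, span these codons with their introns.
Atp5g1: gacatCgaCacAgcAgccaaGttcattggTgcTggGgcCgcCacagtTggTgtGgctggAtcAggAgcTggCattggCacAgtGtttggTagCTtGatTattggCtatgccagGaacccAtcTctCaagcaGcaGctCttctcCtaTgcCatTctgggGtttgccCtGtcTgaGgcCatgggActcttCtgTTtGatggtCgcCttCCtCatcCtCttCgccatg
Atp5g2: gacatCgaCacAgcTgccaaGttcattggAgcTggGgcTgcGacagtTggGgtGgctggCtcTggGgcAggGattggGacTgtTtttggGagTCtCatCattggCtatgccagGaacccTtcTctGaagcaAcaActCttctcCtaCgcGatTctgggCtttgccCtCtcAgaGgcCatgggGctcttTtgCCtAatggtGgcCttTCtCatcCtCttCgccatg
Atp5g3: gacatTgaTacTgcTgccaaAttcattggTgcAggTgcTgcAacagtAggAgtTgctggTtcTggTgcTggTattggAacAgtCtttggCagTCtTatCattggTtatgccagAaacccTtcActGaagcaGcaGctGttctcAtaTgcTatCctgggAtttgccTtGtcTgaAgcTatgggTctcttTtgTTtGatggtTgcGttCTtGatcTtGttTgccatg
Of the 225 bases, 168 were alike in all 3 genes and 57 were not, and the longest run alike in all was 8 bases. *Atp5g1* and *Atp5g2* were 84.9% identical, *Atp5g1* and *Atp5g3* in 180 of 225 bases, and *Atp5g2* and *Atp5g3* 78.7%, with 32 of 34, 41 of 45 and 44 of 48 differences at the third base of a codon. The longest run alike in any pair of genes was 20 bases, between *Atp5g1* and *Atp5g2*.

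All 3 c genes were expressed. *Atp5g3* had 10646, 10605 and 16394 counts, *Atp5g2* 4479, 4711 and 8941 and *Atp5g1* 3876, 4580 and 10248. *Atp5g3* held 58.5%, 56.5% and 50.3% of the family TPM, *Atp5g2* 32.0%, 32.7% and 35.7%, and *Atp5g1* 9.46%, 10.8% and 14.0%. *Atp5g3* led in every library and *Atp5g1* came last in every library by exonic length. With coding length the mean shares were 51.8%, 23.2% and 24.95% for *Atp5g3*, *Atp5g2* and *Atp5g1*, so the lead of *Atp5g3* held, while *Atp5g1* was above *Atp5g2* in replicates 2 and 3. Of the windows of 100 bases in *Atp5g2* transcripts, 34.7% also occur in *Gm10175* or *Gm10231*, which had at most 1 count each. With length limited to windows unique to each gene, *Atp5g3* held 49.7%, 47.8% and 41.96% in replicates 1, 2 and 3 and *Atp5g2* 41.7%, 42.4% and 45.7%, so *Atp5g2* led in replicate 3.

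The order of the complexes by level depended on the length used and on the library. By exonic length, the median was 131 TPM for complex I, 196 for II, 255 for III, 153 for IV and 133 for V. By coding length, the medians were 129, 200, 247, 309 and 359 TPM in the same order. Complex V thus moved from near the lowest to the highest, since several of its genes have exons in the annotation that are long beside their coding sequence. By exonic length the median of complex V was the lowest of the 5 in replicates 1 and 2, at 89.8 and 109 TPM, and the second highest in replicate 3, at 199 TPM. In no setting tried was complex III below complex I.

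Most members shared a direction between libraries. Of the 81 members with a mean count of at least 10, 75 had their highest CPM in replicate 3, as did 43.2% of all 17115 genes tested, and 74 had their lowest in replicate 1, as did 39.3%. At least 1.5-fold higher in replicate 3 than in the mean of the others were 63 of 81 members, against the 24.9% given above for all genes, and 0 were as much lower, against 24.6%. In replicate 1, 56 members were at least 1.5-fold lower, against 18.4% of all genes, and 0 were as much higher, against 17%. Replicate 2 lay between, with 3 members lower (7.29% of all genes) and 0 higher (6.02%). The median log2 ratios of the members were -0.75, -0.25 and 1.01 in replicates 1, 2 and 3, against 0.01, 0.03 and -0.03 over all genes. The sign for replicate 2 rests on replicate 3: set against replicate 1 alone, its median was 0.31. The median for replicate 1 was -0.31 against replicate 2 alone and -1.15 against replicate 3 alone, and -0.42 when all ratios were corrected for exonic length and base composition.

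The counts of 80 of the 81 members varied beyond counting error (chi-square test of the 3 counts against the scaled library sizes, Benjamini-Hochberg adjusted p under 0.05), which was so for 81.5% of all genes. The median biological coefficient of variation was 0.351 in the members (0.214 to 0.574) and 0.338 over all genes tested. Without replicate 3 these medians were 0.131 and 0.209, without replicate 1 0.276 and 0.316, and without replicate 2 0.362 and 0.443. The members were thus close to all genes over the 3 libraries and below them in each pair of libraries. They were not compared with genes of like level.

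**Figure D3:**
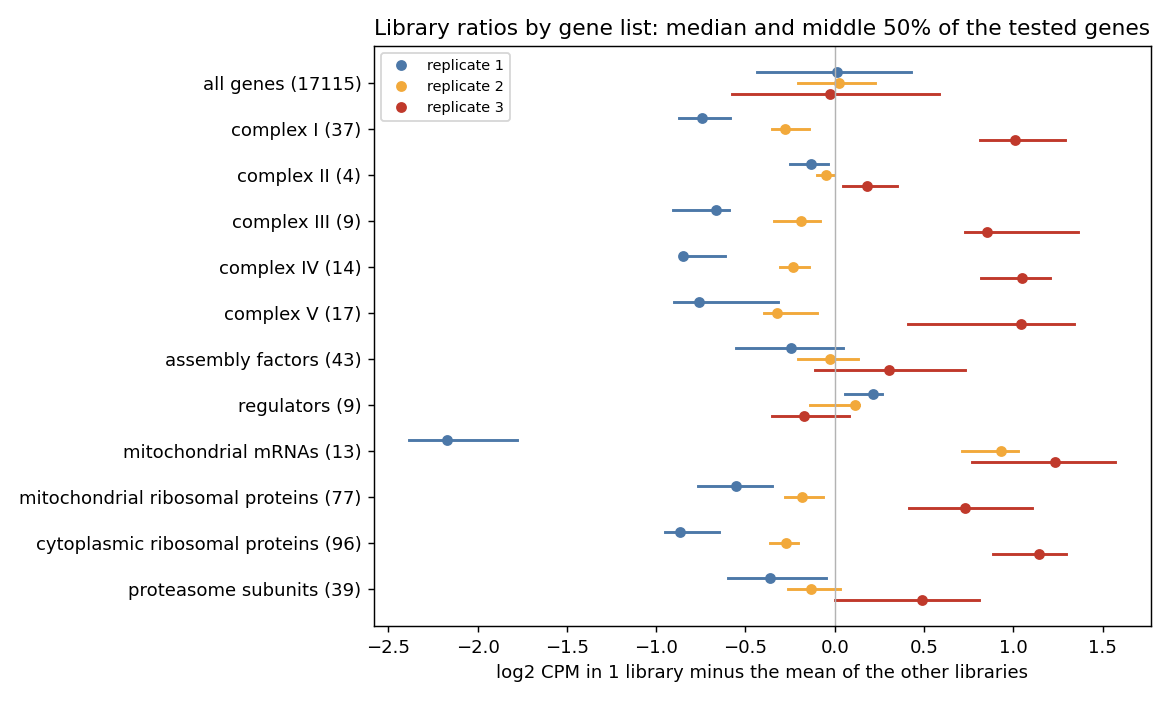
Log2 ratio of each library to the mean of the others, by gene list. Points are medians over the tested genes of a list, lines span the middle 50% of those genes, and the number of tested genes stands in parentheses. Complexes I, III, IV and V and both classes of ribosomal proteins lie to the right in replicate 3 and to the left in replicate 1, whereas complex II and the regulators lie near 0.

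The direction went with transcript length, as it did among other genes. Of members whose principal transcript is at most 600 bases long, 21 of 21 were at least 1.5-fold higher in replicate 3, as were 79.5% of all tested protein-coding genes of that length. The numbers were 28 of 29 against 72.3% from 600 to 1000 bases, 9 of 16 against 47.8% from 1000 to 1600 bases, and 5 of 15 against 13.9% above 1600 bases. Over the 81 members the log2 ratio of replicate 3 and the logarithm of principal transcript length had a Pearson r of -0.63 and a Spearman rho of -0.54, across genes that share libraries and are not independent replicates. The 6 members below the mean of the others in replicate 3 were *Ndufs1*, *Ndufb2*, *Sdha*, *Atp5a1*, *Uqcrc2* and *Uqcrfs1*, with principal transcripts of 2661, 4371, 2900, 2471, 1896 and 1363 bases. Exceptions occurred, as with *Atp5g1* and its 4715 bases at a ratio of 1.26. When the ratios of all genes were corrected for a smooth dependence on exonic length and base composition, the median ratio of the members in replicate 3 was 0.55 and 35 of 81 were above the 1.5-fold limit, against 17.9% of all genes. The corrected median was 0.44 over the 812 tested protein-coding genes with principal transcripts of at most 1000 bases. Over the members a Pearson r of -0.25 with principal transcript length remained, so the correction did not remove all dependence on length. The part of library preparation or RNA quality in this relation was not tested.

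**Figure D4:**
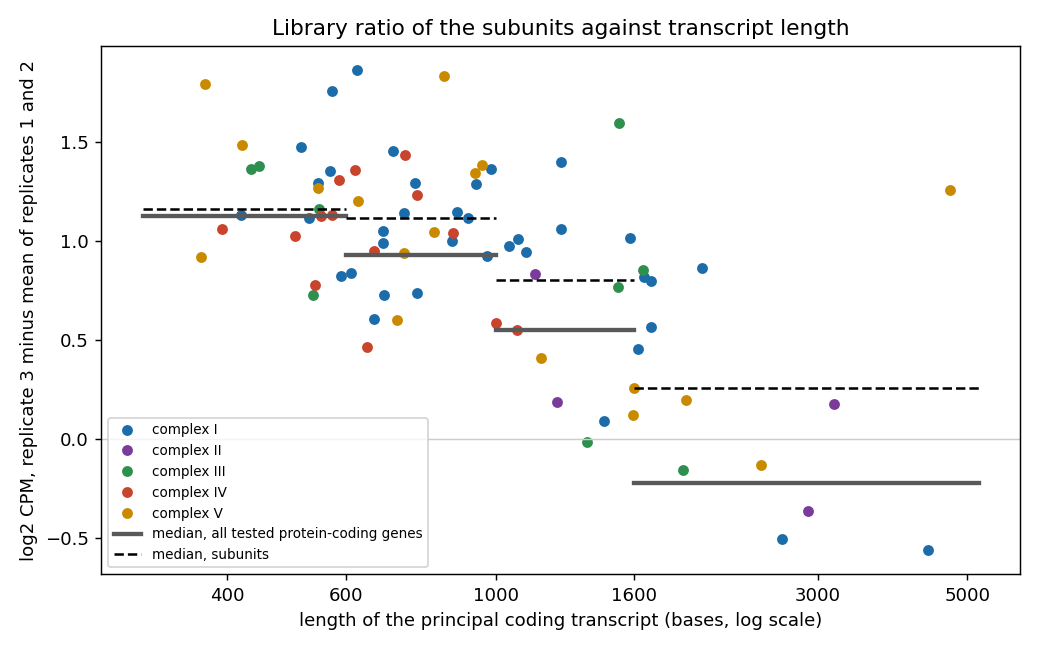
Log2 CPM of each tested member in replicate 3 minus the mean of replicates 1 and 2, against the length of its principal coding transcript in bases on a log axis, coloured by complex. Grey lines give the median of all tested protein-coding genes in 4 length classes and dashed lines that of the members, which falls from 1.16 in the shortest class to 0.26 in the longest.

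Markers of other cell types also differed between these libraries. The 6 neuronal markers summed to 228, 23.0 and 32.9 CPM in replicates 1, 2 and 3, the 4 pigment cell markers to 2.41, 12.7 and 94.8, and the 4 eye field markers to 16.9, 113 and 109.9. The 4 epithelial markers summed to 285, 193 and 211 CPM and the 4 erythroid markers to 1939.7, 3621 and 4257. Apart from *Tyrp1* with 0 counts in replicate 1, none of these 22 markers was at 0 in any library. All 4 pigment markers were highest in replicate 3, as were 75 of the 81 tested members. The erythroid sum was highest there too, although the erythroid *Alas2* and *Hbb-bh1* were highest in replicate 2. The part of these cell types in the result was not tested. In bulk tissue, fewer cells of a type and less RNA per cell cannot be told apart.

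Other lists of housekeeping genes lay to the same side in replicate 3. Against 24.9% of all genes, 47 of 77 tested mitochondrial ribosomal protein genes were at least 1.5-fold higher in replicate 3, their median log2 ratio being 0.73, and 84 of 96 cytoplasmic ribosomal protein genes were, at a median of 1.14. Among 39 proteasome subunit genes, 18 were, with a median of 0.49. The median of 1.01 in the respiratory chain members lay between those of the mitochondrial and the cytoplasmic ribosomal proteins. The lists differed in median principal transcript length: 857.5 bases for cytoplasmic ribosomal proteins, 838 for the members, 1316 for mitochondrial ribosomal proteins and 1540 for the proteasome. After correction for exonic length and base composition the medians were 0.75, 0.55, 0.49 and 0.37 in the same order. These lists are set side by side, and no difference between them was tested.

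The 13 mRNAs encoded by mitochondrial DNA supply membrane subunits of complexes I, III, IV and V. Like most nuclear members they were lowest in replicate 1. Their median log2 ratio in replicate 2 was 0.93, against -0.25 for the nuclear members. The mitochondrial mRNAs summed to 11108, 42427 and 39984 CPM, so replicate 2 stood beside replicate 3 and not beside replicate 1. *mt-Co1* alone had 5518, 20076 and 17927 CPM and weighed most in this sum. Single genes differed in which of replicates 2 and 3 was higher. *mt-Co2*, highest in replicate 3, had 7.38, 34.7 and 60.6 CPM. At least 1.5-fold higher were 13 of 13 in replicate 2 (6.02% of all genes) and 12 of 13 in replicate 3 (24.9%), and 13 of 13 were as much lower in replicate 1 (18.4%). From replicate 1 to replicate 2 their sum differed 3.82-fold, and that of the nuclear members 1.14-fold.

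Genes that build or serve the chain without being part of it were also examined. Of 44 assembly factors 43 were tested, of which 15 were at least 1.5-fold higher and 5 at least 1.5-fold lower in replicate 3, against 24.9% and 24.6% of all genes, with a median log2 ratio of 0.31. The complex III factors *Uqcc2*, with 964, 1372 and 4123 counts, and *Uqcc3*, with 516, 642 and 1385, were among the higher, as was the complex I factor *Ndufaf8* with 373, 494 and 1060. *Acad9*, which has a role in complex I assembly beside fatty acid oxidation, had 1673, 1614 and 910 counts and was lower. *Cox15*, which acts in the synthesis of haem a, had 2121, 1832 and 1075 counts and was lower as well. *Sco2*, a copper chaperone of complex IV, had 0 counts in all libraries, and 91.8% of its exonic bases are shared with other genes, so this count does not describe its level. Cytochrome c itself, *Cycs*, had 4882, 5050 and 5722 counts, and the testis form *Cyct* 0, 2 and 0. The electron-transfer flavoprotein subunit *Etfa* had 2654, 2634 and 2419 counts and *Etfb* 8, 13 and 32, with 58.2% of the bases of *Etfb* shared with other genes.

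The regulators of the nuclear subunits were described by 9 genes, whose principal transcripts are long, with a median of 4167 bases. *Nrf1*, which binds the promoters of many of these genes, had 3594, 3685 and 3691 counts. *Gabpa*, the ETS factor of the same promoters, had 3399, 2506 and 1345 and was the only one of 9 regulators at least 1.5-fold lower in replicate 3, while 0 of 9 were as much higher, against 24.6% and 24.9% of all genes. Part of the stalk subunit *Atp5j* lies in transcripts of *Gabpa*, and 12.7% of its exonic bases are shared with other genes. *Atp5j* had 2822, 3529 and 6613 counts and thus lay opposite to *Gabpa* across the libraries. *Tfam*, which activates transcription of mitochondrial DNA, had 3845, 3434 and 2869 counts. Of the coactivators, *Ppargc1a* had 32, 18 and 26 counts, whereas the related *Pprc1* had 6486, 6140 and 5687. The median log2 ratio of the 9 regulators in replicate 3 was -0.17, and -0.01 after correction for length and base composition. All tested protein-coding genes with principal transcripts above 4000 bases had a median of -0.52.

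Many members start close to a neighbouring gene. For 19 of the 86 members (22.1%) a protein-coding gene on the opposite strand starts within 1000 bases, head to head, as for 6.77% of 22028 annotated protein-coding genes. In 16 of these pairs both genes were tested. Their median log2 ratio in replicate 3 was 1.06 for the members and 0.25 for the neighbours, and the member had the higher ratio in 13 of 16. *Ndufa2* had 1301, 1662 and 5048 counts and *Ik*, a splicing factor 99 bases away, 7624, 6860 and 8280. *Uqcrh* had 2590, 3030 and 6372 counts and *Lrrc41*, 198 bases away, 3831, 3553 and 3779. In both pairs the member was highest in replicate 3 while the counts of the neighbour stayed within a narrow range. *Ndufa7* had 1742, 1905 and 4015 counts and *Rps28*, a ribosomal protein gene 10 bases away, 3917, 4634 and 11146, so both genes of this pair were highest in replicate 3. *Sdhd* had 4153, 3988 and 4710 counts and *Timm8b*, a short gene of mitochondrial import 98 bases away, 750, 954 and 1600, and here the neighbour had the larger ratio. The neighbour had the longer principal transcript in 13 of the 16 pairs, with a median of 1894.5 bases against 733.5 for the members.

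Promoters of the members were searched for words known from respiratory chain genes, in the RefSeq window of 250 bases before to 50 after the start (GRCm38.p6), which was at hand for 66 of the 85 symbols. The words were GCGCA followed by any base and GCGC for NRF1, CCGGAAG for ETS factors and AAGATGGCG for YY1, read on both strands, none of which contains another. The NRF1 word was in 17 of 66 members (25.8%) and in 7.17% of 17492 protein-coding promoters of the same length. The ETS word was in 16 (24.2%) against 12.9%, and the YY1 word in 7 (10.6%) against 2.14%. Any of the 3 words was in 34 (51.5%) against 19.97%. The windows of the members held a median of 19 CpG dinucleotides and those of all protein-coding genes 13, a difference that bears on words rich in CpG. A match is a run of letters and not a site known to be bound.

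Short stretches upstream of 4 members are printed to show these words in place, with the word in capitals, on the strand of the gene. They come from *Ndufa11* (complex I, NRF1, chr17:56717692-56717721, plus strand), *Ndufs5* (complex I, NRF1, chr4:123718265-123718294, minus strand), *Uqcr11* (complex III, ETS, chr10:80406871-80406897, minus strand) and *Atp5e* (complex V, ETS on the opposite strand, chr2:174464187-174464213, minus strand).
Ndufa11: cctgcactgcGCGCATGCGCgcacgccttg
Ndufs5: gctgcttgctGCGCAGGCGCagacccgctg
Uqcr11: tctctcctccCCGGAAGtagatgtcaa
Atp5e: acggccacagCTTCCGGtagccgctcg
These 4 genes had log2 ratios of 1.29, 1.05, 1.38 and 1.48 in replicate 3. No difference by word was tested, and the median ratio was 1.00 in the 17 tested members with the NRF1 word and 1.04 in the 47 without, 1.18 and 0.97 for the ETS word, and 1.06 and 1.01 for the YY1 word.

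Some members share sequence with other annotated genes. Of the 86 members 31 had at least 1 window of 100 bases that also occurs in a transcript of another gene, and in 12 at least 10% of windows did. *Ndufb9*, an accessory subunit of complex I, had 121, 189 and 424 counts, and *Ndufb4*, another, had 379, 472 and 817. Both were among the low members of the complex, and 11.1% of the windows of *Ndufb9* and 16.0% of those of *Ndufb4* also occur in transcripts of other genes. Their replicate 3 ratios of 1.45 and 0.92 lay within the range of the other accessory subunits. Sharing and a low level did not always go together, since *Atp5g2*, with 34.7% of its windows elsewhere, stood at 289 ± 57.5 TPM and *Ndufa13*, an accessory subunit of complex I with 23.96%, at 157 ± 63.6 TPM (SD, n = 3). The part of shared sequence in these levels was not tested.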

How the data were processed

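RNA was extracted from dissected E10.5 maxillary processes, poly(A) RNA was made into libraries with a kit that does not mark strand, and paired-end reads were sequenced. Per the submitters' processing notes, reads were checked with FastQC, mapped to mm10 with STAR 2.7.3a and counted with HTSeq 0.12.4. The strand setting, overlap mode and annotation release are not given in the sources used here. The authors deposited whole-number read counts per gene for each library, without normalization. Rows that name no gene (14.2% to 16.4% of counted reads) were left out of library sizes and tests.

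Identifiers were matched to GENCODE M21 (GRCm38), in which 55141 of 55401 had a row. All 3 libraries form 1 group. CPM used edgeR 4.0.16 with TMM scaling (factors 1.06, 1.01 and 0.940) and a prior count of 2 on the log2 scale. Tested were 17115 genes whose mean count reached 10. Counting error was tested with a chi-square test against scaled library sizes, Benjamini-Hochberg adjusted over all of these genes at 0.05. The biological coefficient of variation is the square root of the tagwise dispersion of edgeR in a model with an intercept only. A library ratio is the log2 CPM of 1 library minus the mean of the other 2, with 1.5-fold as the limit, and its smooth dependence on length and base composition was estimated in mgcv 1.9.3. TPM was computed from the counts and exonic length. Shared bases were counted on either strand. Words in promoters were searched in RefSeq windows, and sequence shared between genes was sought in annotated transcripts, in windows of 100 bases. Software was R 4.3.3 and Python 3.11.15 with matplotlib 3.10.9, pandas 2.3.3, scipy 1.17.1 and numpy 2.4.6. The steps were tested on simulated data before use.

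Named are the core subunits, every member of the paralog families, the most and least abundant detected member of each complex, the 5 members with the largest ratio between libraries at a mean count of at least 100, and members at or under 3 counts in every library. The values of 1 gene covered by this rule are not reported here. Other members and other genes named (among them Ndufa9, Ndufa13, Ndufb9, Ndufb4, the neighbours, and single assembly factors and regulators) were chosen after their values were seen. The members and all gene lists were chosen with earlier results of these data known. Alternatives were other scalings (DESeq2 1.42.0), filters, prior counts and lengths, and leaving out each library in turn.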

Additional observations from a re-analysis of the deposited data

How the results depend on the processing

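For 23 results, 151 values under other settings were computed. Of these, 130 lay within the spread between replicates or within 1.5 times the count, and 21 moved further. No call changed direction, but 1 median changed sign, as given below. The count of members at least 1.5-fold higher in replicate 3 was 63, and 35 with the length and GC trend removed. In replicate 1 this count was 0, and 1 when scaled by counts on genes only, 1 with the trend removed, and 1 without replicate 2 as without replicate 3. In replicate 2 it was 0, and 0 to 2 with libraries left out. The median log2 ratio of replicate 2 was -0.82 without replicate 1 and 0.31 without replicate 3, against -0.25 over all 3 libraries, so its sign depends on replicate 3.

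The levels of complexes and paralog shares depended on length. Complex II had a median of 178 TPM with only exonic bases not shared and 179 with principal transcript length. Complex III had 209.7 TPM with principal transcript length. Complex IV had 309 TPM with coding length, 241 over detected members and 214 with principal transcript length. Complex V had 359 and 314 TPM with coding and principal transcript length. Cox4i1 held 98.1% and 98.4% of its family with coding and principal length. With principal length Cox6b1 held 87.5%, Atp5g3 65.5% and Ndufa4 99.3%, and with windows unique among annotated transcripts Atp5g3 held 46.5%. The leading paralog kept its lead in the mean over the libraries under each length, but with unique windows Atp5g2 led in replicate 3 and Cox7a2l in replicate 1. The median coefficient of variation of the members was 0.131 to 0.362 with libraries left out, lowest without replicate 3.

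Principal transcript length and unique windows were added after the data were seen. Windows unique in the genome were not run, since no genome sequence was used here. No paired analysis was possible because the libraries form 1 group and the labels give no replicate numbers. Depth limits Cox6a2, Cox7b2, Cox8b and Cox8c, which lay at or under the floor of 3 counts. With 3 libraries of 1 genotype, the spread can be described but not assigned to a source.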
